A study of Mus musculus with 4 samples.

Results

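The genes described here are 10 genes of the Nrf2 oxidative stress pathway: the transcription factor gene Nfe2l2, its inhibitor Keap1, and the targets Gclc, Gclm, Slc7a11, Txnrd1, Srxn1, Hmox1, Nqo1 and Osgin1. They were chosen by name, through the RefSeq accession that the scanner tables give for each probe. Earlier results of these data were known when they were chosen. All 10 were found, by 16 of the 41174 probes on the array, and all 10 passed the filter on dim probes, among 19171 genes tested. Of these 13510 had a gene symbol, and the rest are array entries without one, each counted as a gene. The shares of all genes below include them. RNA came from mouse embryonic fibroblasts (MEFs) of p53 null genotype, cultured in serum-containing medium and taken 5 days after retroviral infection. One group had received OSK, which in reprogramming work stands for Oct4, Sox2 and Klf4, and the other OSK plus Glis1, a zinc finger transcription factor. By the labels both groups thus received OSK and are p53 null, and each had 2 one-colour arrays on 1 shared slide. The labels call the OSK cells embryonic fibroblasts and the OSK+Glis1 cells iPSC from them, and do not state if the 2 samples in each group were grown apart, so that p-values cover no more than the scatter of these 4 samples, possibly technical.

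Nrf2, the protein of Nfe2l2, is a transcription factor that is made constantly and degraded constantly. Keap1 binds it and hands it to a ubiquitin ligase, until oxidants or electrophiles modify Keap1 and Nrf2 escapes. Nrf2 then pairs with a small Maf protein at antioxidant response elements and raises genes of glutathione synthesis, thioredoxin recycling, haem breakdown and quinone reduction, in fibroblasts as in many other cells. Its activity is set mostly at the protein level, which arrays do not measure.

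The promoter windows of the pathway are shown first, as the stretches in which antioxidant response elements were searched. RefSeq windows (GRCm38.p6, 250 bases before to 50 after a start site) were at hand for 8 of the 10 genes, and Hmox1 and Gclc had none. The core antioxidant response element TGACNNNGC, searched on both strands, was found in the windows of 4 of these 8 genes: Nfe2l2, Gclm, Txnrd1 and Srxn1. Counted by gene, 14% of all 27018 genes with a window hold it in at least 1. Counted by window, it lies in 4 of the 10 windows of the Nrf2 genes and in 12.4% of all 32841 windows of this length. The stretches that hold it upstream of the start site are printed 5′ to 3′ along the gene, with the element in capitals, and for Gclm and Txnrd1 it reads on the opposite strand.

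Nfe2l2 (chr2:75704855-75704913, minus strand): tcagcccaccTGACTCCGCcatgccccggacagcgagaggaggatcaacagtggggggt
Gclm (chr3:122245383-122245471, plus strand): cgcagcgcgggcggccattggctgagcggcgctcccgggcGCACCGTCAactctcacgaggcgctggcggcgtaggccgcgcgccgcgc
Txnrd1 (chr10:82859074-82859162, plus strand): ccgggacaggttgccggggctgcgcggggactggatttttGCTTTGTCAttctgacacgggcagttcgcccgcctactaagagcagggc

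The first base of the element lies 240 bases upstream of the start site in Nfe2l2, 134 in Gclm and 92 in Txnrd1, where 1 of 3 windows held it. In Srxn1 the match (GCTAGGTCA) lies just after the start site. The windows of Keap1, Slc7a11, Nqo1 and Osgin1 did not hold these letters, and sequence outside the windows was not searched. A match is a description of the sequence and not a measured binding site.

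A second element was searched after the Slc7a11 window had been seen. It is TGATGCAA, on both strands, a core of the amino acid response element that Atf4, the factor of the integrated stress response, is known to bind. The Slc7a11 window held it 2 times, 66 and 47 bases upstream, the nearer copy on the opposite strand. Both are in capitals in the 250 bases upstream of its start site, shown because Slc7a11 was the gene of the 10 that changed. The element occurred in 0.895% of all windows and in 1 of the 10 windows of the Nrf2 genes. Among the other pathway genes listed below, the windows of 3 held it, those of Chac1, Ptgr1 and Slc1a4. None of these 3 passed the test, and the windows at hand for the other called pathway genes did not hold it.

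Slc7a11 (chr3:50443614-50443863, minus strand): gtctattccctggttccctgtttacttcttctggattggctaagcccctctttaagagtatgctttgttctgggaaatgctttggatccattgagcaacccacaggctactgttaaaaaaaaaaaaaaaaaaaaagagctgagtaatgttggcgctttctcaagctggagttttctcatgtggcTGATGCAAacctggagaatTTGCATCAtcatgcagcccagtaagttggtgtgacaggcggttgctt

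Levels are given below as log2 of the processed signal relative to the array's 75th percentile, so a value of 0 equals that percentile. Differences are OSK+Glis1 minus OSK. Levels of different probes are not read as relative amounts of RNA. They serve only to choose a gene's brightest probe, to order named genes and to sum the signals of marker lists. The share of spots well above background ran from 59.9% to 65.2% across arrays, with 0 saturated. The probe named Glis1 did not separate the groups. It read -3.26 and -3.34 on the OSK arrays and -3.28 and -3.73 on those labelled OSK+Glis1, and where it lies on the transcript was not stated, so it gives no check of the labels. Nor do the probes of the OSK factors and of p53, whose places are not stated either. Klf4 was well above background on all 4 arrays, without a call. Sox2 was not well above background on either OSK array, at 16.8 and 15.4 intensity units, and read 16.8 and 90.7 in OSK+Glis1, without a call. Pou5f1, the gene of Oct4, was well above background on 1 of the 2 OSK arrays (41.5 and 12.6 units) and on both OSK+Glis1 arrays (185 and 449 units), 11.2-fold higher there (limma adjusted p = 0.0194). Its probe passed the filter on dim probes only through OSK+Glis1. Trp53, the gene of p53, read 798 to 940 units and was well above background on all 4 arrays. Every direction here is that of the arrays as labelled. Of the 9 fibroblast markers all were well above background on all 4 arrays. In OSK+Glis1 4 of them were called lower, where 8.17% of all genes tested were.

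Adding Glis1 to OSK went with a large fall of 1 of the 10 genes, Slc7a11, which encodes the cystine importer xCT, while the transcript of the factor Nfe2l2 stayed within 0.47 log2 units of no difference (95% confidence interval). In limma, at an adjusted p of 0.05 over all genes, 1 of the 10 was lower and 0 were higher, and without adjustment 4 had a p under 0.05, Gclc higher and 3 lower, where all genes gave 29.2%. Over all genes tested 8.17% were lower and 6.05% higher, so 1 called gene of 10 is close to the background of 14.2%. The members' median difference was -0.15, against 0.05 for all genes tested. With dim probes kept it was -0.15 against -0.14. Under normexp, the only setting where the members' median was the higher, it was -0.17 against -0.24. The size of the gap to all genes thus depends on the processing. With each array centred on its median, the members and all genes gave -0.01 and 0.19. The authors' deposited values, nearly the same centring, gave 0.00 and 0.21, so the sign of the members' median depends on the centring. Both OSK+Glis1 arrays lay above both OSK arrays for 1 of the 10 genes and below them for 5, where all genes gave 33.4% and 26.6%.

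**Figure D1:**
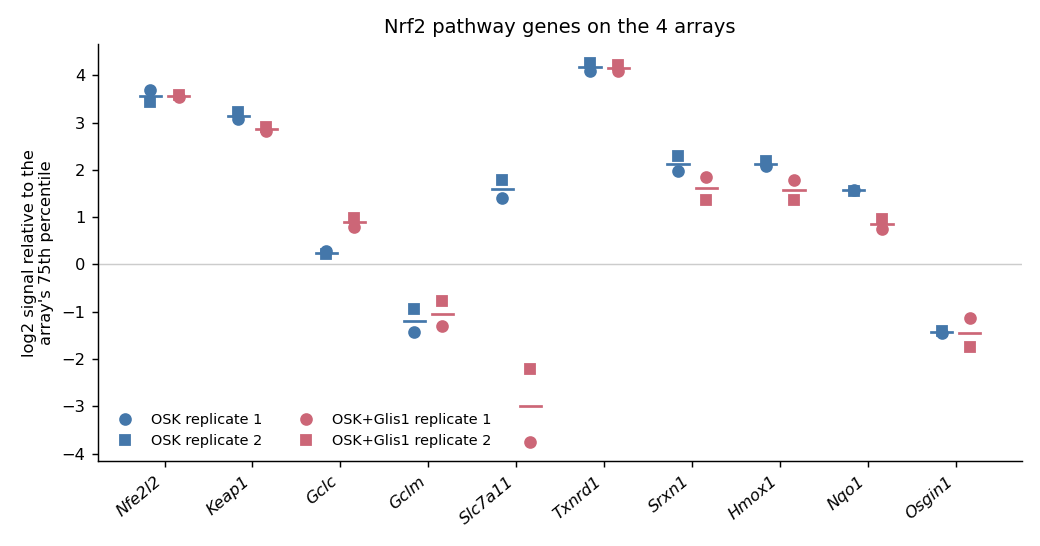
Signal of each of the 10 Nrf2 pathway genes on each of the 4 arrays, as log2 relative to the array's 75th percentile (vertical axis), with OSK in blue, OSK+Glis1 in red, circles for replicate 1, squares for replicate 2 and short lines for group means. Slc7a11 is the gene whose groups stand far apart, at 1.41 and 1.79 against -3.76 and -2.21. Heights of different genes come from different probes and are not comparable.

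The factor and its inhibitor came first. Nfe2l2 (NM_010902) read 3.69 and 3.43 on the OSK arrays and 3.54 and 3.58 on the OSK+Glis1 arrays. The groups overlapped and the difference was 0.00 ± 0.18 (SE, limma adjusted p = 0.994). A further Nfe2l2 probe gave 2.99 and 2.78 in OSK and 2.84 and 2.93 in OSK+Glis1, again with overlap. Keap1 (NM_016679), the adaptor that marks Nrf2 for degradation, read 3.07 and 3.22 in OSK and 2.82 and 2.91 in OSK+Glis1. Both OSK+Glis1 arrays were the lower ones, but the difference of -0.28 ± 0.17 did not pass (SE, limma adjusted p = 0.356, 95% confidence interval -0.72 to 0.16).

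Glutathione is built from cysteine, which most cultured cells obtain by importing cystine. Slc7a11 (NM_011990), the exchanger that brings in cystine for glutamate, had processed signals of 2525 and 2321 intensity units on the OSK arrays and 62.4 and 205 on the OSK+Glis1 arrays. On the log2 scale these are 1.41 and 1.79 against -3.76 and -2.21. The groups were far apart, and the OSK+Glis1 arrays also differed from each other by more than 1 log2 unit. Slc7a11 fell 24.0-fold, with a 95% confidence interval of 9.08-fold to 63.4-fold. On the log2 scale the difference was -4.58 ± 0.54 (SE) and the adjusted p from limma 0.00884. The fall is larger in size than 99.3% of the differences of all genes tested. The call was lost without OSK replicate 1 (difference -4.78, limma adjusted p = 0.0648), without OSK replicate 2 (-4.39, adjusted p = 0.0771) and under normexp background correction (-3.51, adjusted p = 0.259), with the same direction in all 3.

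Slc7a11 was the target of 3 probes and each of them fell. In a fit over all 25874 probes the differences were -4.58 ± 0.54, -4.58 ± 0.83 and -5.28 ± 0.69 (SE), with limma adjusted p of 0.00904, 0.0296 and 0.0117. The less bright probes read -2.36 and -2.23, and -0.68 and -0.16, on the OSK arrays. On OSK+Glis1 replicate 2 they were still well above background, at -5.60 and -4.69. On OSK+Glis1 replicate 1 neither was, with signals of 2.97 and 8.06 intensity units, so their differences include values that only bound the level there. These less bright probes passed the filter on dim probes only through OSK, the group where they are high.

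**Figure D2:**
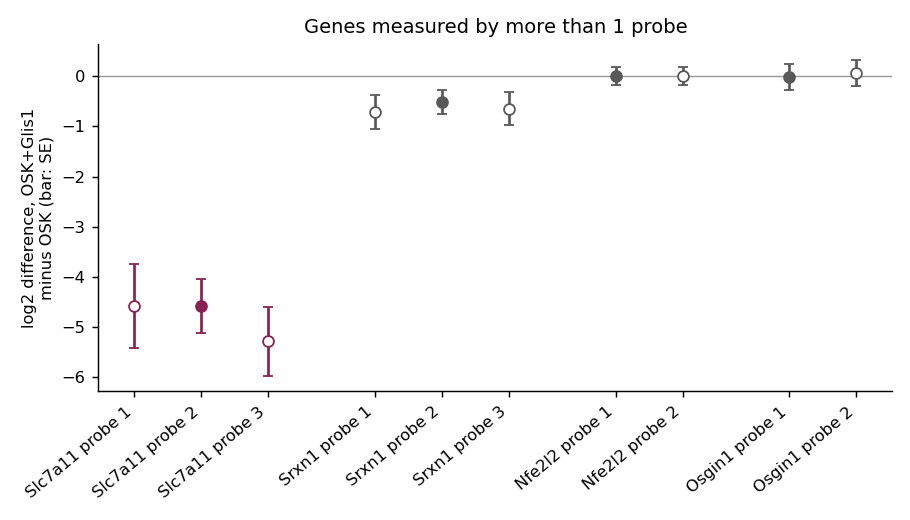
Log2 difference, OSK+Glis1 minus OSK (vertical axis, bars are SE), for each probe of the 4 genes with more than 1 probe. Filled points are the probe that represents the gene and purple marks a limma adjusted p under 0.05 over all probes. All 3 Slc7a11 probes lie between -4.58 and -5.28, while the other probes lie between -0.71 and 0.07.

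Glutamate-cysteine ligase joins a catalytic and a modifier subunit, and neither transcript passed the test. Gclc (NM_010295), the catalytic subunit of the enzyme that commits cysteine to glutathione, read 0.28 and 0.22 in OSK and 0.79 and 0.99 in OSK+Glis1. Both OSK+Glis1 arrays were higher, by 0.64 ± 0.17 (SE), or 1.56-fold with a 95% confidence interval of 1.14 to 2.14. The limma adjusted p was 0.0800, and 0.0494 with median centring, 0.0457 in the authors' deposited values, nearly the same centring, and 0.0434 with an intensity trend in the variance prior. In the other 12 settings it did not pass, with 0.137 with a replicate block, 0.161 to 0.324 without 1 array and 0.582 under normexp. Gclm (NM_008129), the modifier subunit, read -1.44 and -0.94 in OSK and -1.31 and -0.78 in OSK+Glis1. Its groups overlapped, with a difference of 0.14 ± 0.28 (SE, limma adjusted p = 0.788). The difference between the 2 subunits was not tested.

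The thioredoxin system passes electrons from NADPH to oxidised proteins and peroxiredoxins. Txnrd1 (NM_001042523), the cytosolic thioredoxin reductase, read 4.08 and 4.26 in OSK and 4.08 and 4.22 in OSK+Glis1. The difference was -0.02 ± 0.18 (SE, limma adjusted p = 0.955), and its 95% confidence interval of -0.48 to 0.44 leaves out a change of 1 log2 unit. Srxn1 (NM_029688), sulfiredoxin, which repairs overoxidised peroxiredoxins, read 1.96 and 2.28 in OSK and 1.84 and 1.37 in OSK+Glis1. Both OSK+Glis1 arrays were lower, by -0.52 ± 0.24 on the brightest probe (SE, limma adjusted p = 0.248). Its other probes gave -0.71 ± 0.34 and -0.65 ± 0.33, and none of the 3 passed.

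Hmox1 and Nqo1 are the most used readouts of the pathway. Hmox1 (NM_010442), haem oxygenase, which opens haem to biliverdin, iron and carbon monoxide, read 2.08 and 2.18 in OSK and 1.78 and 1.37 in OSK+Glis1. The OSK+Glis1 arrays were the lower ones, and the difference of -0.56 ± 0.21 (SE) had an unadjusted p of 0.0461 and a limma adjusted p of 0.162. Nqo1 (NM_008706), the quinone reductase, read 1.57 and 1.55 in OSK and 0.75 and 0.95 in OSK+Glis1. Both OSK+Glis1 arrays were again lower, by -0.71 ± 0.17 (SE), a 1.64-fold difference with a 95% confidence interval of 1.20 to 2.24. The limma adjusted p was 0.0613. Among the 15 other settings it passed in 3, with quantile normalization (0.0499), under normexp with flagged local backgrounds replaced (0.0480) and with an intensity trend (0.0257). In the other 12 it did not, with adjusted p of 0.106 with a replicate block and with median centring, 0.186 with dim probes kept, 0.153 to 0.269 without 1 array and 0.604 under normexp. Osgin1 (NM_027950), an oxidative stress-induced growth inhibitor, read -1.46 and -1.42 in OSK and -1.14 and -1.75 in OSK+Glis1, and its difference of -0.01 ± 0.25 was within the error (SE, limma adjusted p = 0.983).

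**Figure D3:**
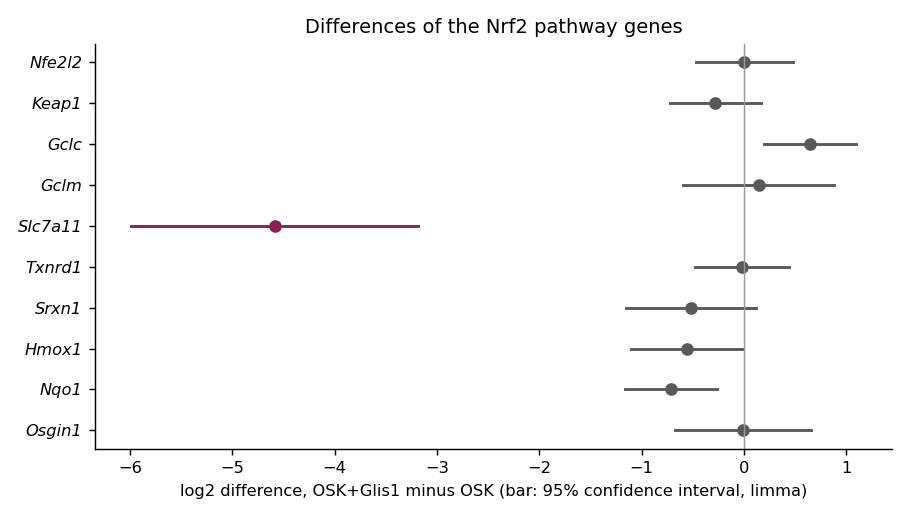
Log2 difference, OSK+Glis1 minus OSK (horizontal axis), of the 10 genes with 95% confidence intervals from limma, purple for an adjusted p under 0.05. The interval of Slc7a11 runs from -5.99 to -3.18. The intervals of Gclc, Hmox1 and Nqo1 also leave out 0, on opposite sides, without passing the adjustment over all genes.

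**Figure D4:**
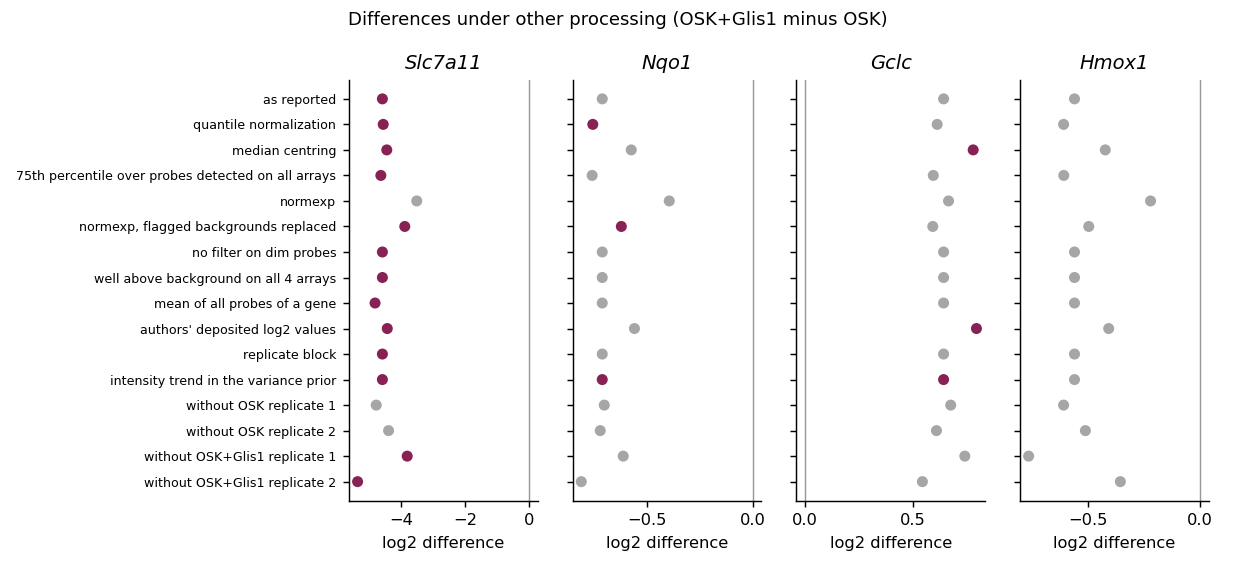
Log2 difference, OSK+Glis1 minus OSK (horizontal axes, scaled separately per gene), of Slc7a11, Nqo1, Gclc and Hmox1 as reported and under 15 other settings, purple for a limma adjusted p under 0.05. Each gene keeps its side of 0 in all settings. Slc7a11 ranges from -5.36 to -3.51, and Nqo1 and Gclc each pass the threshold in 3 of the 15. Median centring and the deposited values are nearly the same setting.

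Beyond the 10 genes, 94 further genes of the pathway were listed by role, of which 92 had a probe and 88 were tested. In limma 4 of the 88 were higher and 5 lower, or 10.2%, against 14.2% of all genes, and their median difference was -0.12. That median was 0.02 with median centring, 0.04 in the authors' deposited values, nearly the same centring, and 0.10 under normexp, so no direction is given for it. The 9 genes called fell in 3 of the 6 role groups, and none was among the listed regulators.

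Of 15 regulators and partners of Nrf2, 0 passed in limma (3 had a p under 0.05 before adjustment). Sqstm1, the autophagy adaptor p62 that can sequester Keap1, differed by 0.04 ± 0.30 (SE, limma adjusted p = 0.950). Rbx1, a subunit of the ubiquitin ligase, differed by 0.17 ± 0.21, the related factor gene Nfe2l1 by -0.20 ± 0.17 and the Keap1-binding peptidase Dpp3 by -0.12 ± 0.29. Bach1, which represses Hmox1 and other targets, was picked after its values were seen. It read -1.32 and -1.69 in OSK and -1.02 and -1.60 in OSK+Glis1, with overlap.

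Among 19 tested genes of glutathione synthesis and use, 1 was lower and 1 higher. Gpx2, a glutathione peroxidase best known from gut and other epithelia, read 1.42 and 1.73 in OSK and -2.26 and -2.45 in OSK+Glis1. It fell by a factor of 15.2 (-3.93 ± 0.20 SE on the log2 scale, limma adjusted p = 0.00225), a call lost only under normexp among the 15 settings. Ggt7, a member of the gamma-glutamyltransferase family, rose from -1.20 ± 0.27 to 0.70 ± 0.30 (SD, n = 2), a log2 difference of 1.89 ± 0.25 (SE, limma adjusted p = 0.0112), a call lost without OSK replicate 2 and under normexp. The peroxidase genes Gpx1 and Gpx4 did not pass, at -0.24 ± 0.16 and 0.64 ± 0.19 (SE, limma adjusted p = 0.399 and 0.0972). The product of Gpx4 removes lipid peroxides.

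The partners of Slc7a11 in this route were looked up after its value was seen. Slc3a2, the heavy chain that carries the xCT protein to the membrane, read 4.60 and 4.89 in OSK and 4.90 and 4.52 in OSK+Glis1. It overlapped between groups, with a difference of -0.04 ± 0.22 (SE, limma adjusted p = 0.932). Glutathione synthetase, Gss, differed by -0.36 ± 0.18 and glutathione reductase, Gsr, by -0.72 ± 0.18 (SE, limma adjusted p = 0.272 and 0.0651). Gsr passed in the same 3 settings as Nqo1, with limma adjusted p of 0.0496, 0.0352 and 0.0227, and at the most had 0.664, under normexp.

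Of 17 tested thioredoxin, peroxiredoxin and superoxide genes, 1 was higher and 0 lower in limma, and 1 more had a p under 0.05 before adjustment. Sesn2, sestrin 2, a stress-induced regulator of growth signalling, read 0.51 and 0.16 in OSK and 2.12 and 2.03 in OSK+Glis1. It rose by a factor of 3.34 (1.74 ± 0.20 SE on the log2 scale, limma adjusted p = 0.00814), a call lost only under normexp. The superoxide dismutases Sod1 and Sod2 differed by -0.31 ± 0.17 and -0.46 ± 0.21 and the peroxiredoxin Prdx2 by -0.27 ± 0.19 (SE), none past the threshold.

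The 8 genes of NADPH supply had 0 calls in limma and 2 with a p under 0.05 before adjustment. Taldo1 (-0.05 ± 0.18) and Tkt (0.46 ± 0.18), of the pentose phosphate pathway, and its dehydrogenases Pgd (-0.29 ± 0.22) and G6pdx (-0.05 ± 0.18) did not pass. The 11 genes of haem and iron handling also had 0 calls in limma and 2 such p-values. Fth1, the ferritin heavy chain, read 6.38 and 6.55 in OSK and 7.44 and 7.03 in OSK+Glis1, higher on both arrays by 0.77 ± 0.22 (SE, limma adjusted p = 0.0870). It passed under normexp with flagged backgrounds replaced (0.0173) and with an intensity trend (0.0314), and in the other 13 settings it did not, with up to 0.582 under normexp. Its light chain Ftl1 differed by 0.01 ± 0.21, haem oxygenase 2 (Hmox2) by 0.25 ± 0.17 and Alas1, the first enzyme of haem synthesis, by -0.53 ± 0.18.

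Detoxification enzymes and other known targets held most of the calls, with 4 lower and 2 higher of 18 tested (33.3%). Over all genes tested 8.17% were lower and 6.05% higher. The lists were chosen with earlier results of these data known, so this larger share is no evidence about the group. Aldh3a1, an aldehyde dehydrogenase known from cornea and other epithelia, read 1.70 and 1.78 in OSK and -3.80 and -2.97 in OSK+Glis1. It fell by a factor of 34.8 (-5.12 ± 0.31 SE on the log2 scale, limma adjusted p = 0.00253). Ephx1, microsomal epoxide hydrolase, read 1.37 and 1.65 in OSK and -1.06 and -1.01 in OSK+Glis1, and fell 5.84-fold (-2.54 ± 0.18 SE, limma adjusted p = 0.00324). Both calls were lost only under normexp.

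Trib3, a pseudokinase, read -0.05 and -0.18 in OSK and -1.49 and -1.61 in OSK+Glis1. It fell 2.71-fold (-1.44 ± 0.17 SE, limma adjusted p = 0.00914). Aldh1a1, a retinaldehyde dehydrogenase, rose 4.47-fold, from -0.40 and -1.19 to 1.34 and 1.39 (2.16 ± 0.30 SE, limma adjusted p = 0.0139). The Trib3 call was lost without OSK replicate 1 and that of Aldh1a1 without either OSK+Glis1 array, and both under normexp. The remaining calls were the aldehyde oxidase gene Aox1, lower by -1.32 ± 0.28, and the carbonyl reductase gene Cbr3, higher by 0.89 ± 0.18 (SE, limma adjusted p = 0.0419 and 0.0377). Both of these were lost without any 1 of the 4 arrays, without the filter on dim probes and under normexp, and Cbr3 also with a replicate block (limma adjusted p = 0.0606).

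**Figure D5:**
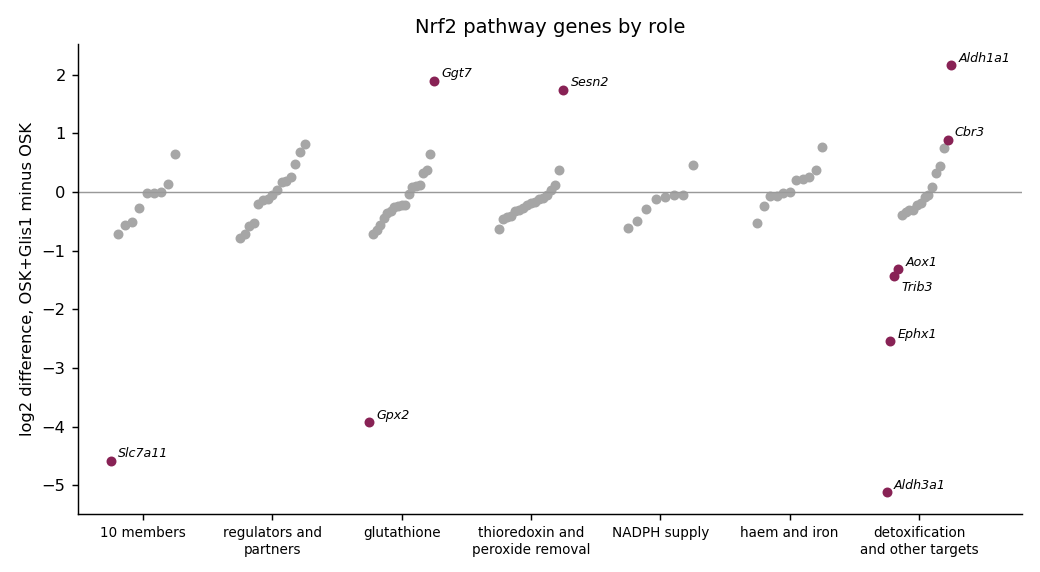
Log2 difference, OSK+Glis1 minus OSK (vertical axis), of the 10 genes and of the 88 other tested pathway genes, grouped by role (horizontal axis, sorted by value within a group). Purple points with names passed a limma adjusted p of 0.05. The calls are 4 higher and 5 lower among the 88, and the groups of regulators, NADPH supply and haem and iron hold none.

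Markers of cell types shifted between the groups as well. The counts below stand beside 8.17% of all genes tested called lower and 6.05% called higher. Of 9 keratinocyte markers 7 were tested, 3 lower and 1 higher. Krt14, a keratin of basal epithelium, fell 8.65-fold, Tgm1, a transglutaminase of the cornified envelope, 22.4-fold and Trp63 2.64-fold, while Krt6a rose 2.56-fold (limma adjusted p = 0.00485, 0.00231, 0.0438 and 0.0405). Krt14 went from 1.28 ± 0.10 to -1.83 ± 0.49 and Tgm1 from -0.03 ± 0.01 to -4.52 ± 0.41 (SD, n = 2). Trp63 was dim, at 65.2 and 26.9 intensity units in OSK and 16.5 and 19.2 in OSK+Glis1. Krt5 and Krt17 were higher on both OSK+Glis1 arrays without a call (0.71 ± 0.23 and 0.66 ± 0.24 SE, limma adjusted p = 0.118 and 0.147), so the list had no common direction. The summed level of the list, in multiples of the 75th percentile, was 21.5 to 23.5 in OSK and 17.2 to 19.3 in OSK+Glis1, and most of it came from Sfn, which was not called. Ivl and Dsg3 were not well above background on any array.

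Of the 9 fibroblast markers 4 were lower and 0 higher. Dcn (decorin) fell 6.15-fold, Lum (lumican) 4.49-fold, Thy1 3.43-fold and the collagen gene Col1a1 3.27-fold (limma adjusted p = 0.0163, 0.00543, 0.00728 and 0.0237). Vim, the mesenchymal filament vimentin, read 7.16 ± 0.04 and 7.04 ± 0.12 (SD, n = 2) without a call. The sums were 414 to 458 in OSK and 346 to 382 in OSK+Glis1.

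Of 7 tested pluripotent cell markers 3 were higher, each not well above background on either OSK array and well above it on both OSK+Glis1 arrays. These 3 passed the filter on dim probes only through OSK+Glis1, the group where they are high. The filter thus favoured this direction, and their count and p-values are no independent support for it. By group means, Esrrb was at least 11.8-fold higher, Dppa3 at least 2.53-fold and Lin28a at least 1.77-fold (limma adjusted p of the fitted difference 0.0120, 0.0137 and 0.0489). These bounds set the mean of the OSK+Glis1 arrays against, per OSK array, the higher of the lowest signal well above background and the probe's own. They do not hold for each array, since OSK+Glis1 replicates 1 and 2 read -3.36 and -1.30 for Esrrb and -5.04 and -4.04 for Dppa3. Lin28a read -6.02 and -4.09, where the lowest such signals on the OSK arrays were -6.21 and -5.56, so its bound rests on replicate 2. The list's sums (0.745 to 1.89 in OSK and 0.604 to 1.27 in OSK+Glis1) do not show these rises, since Dppa5a, which was not called, made up most of them in OSK. Dppa5a and Zfp42 had lower means in OSK+Glis1 with overlap (-1.06 ± 0.58 and -1.68 ± 0.93 SE). Zfp42 passed the filter only through OSK. It was well above background on 1 of the 2 OSK+Glis1 arrays, and read 7.62 intensity units on replicate 1. Tdgf1 (0.84 ± 0.42), which passed the filter only through OSK+Glis1, and Utf1 (-0.01 ± 0.26 SE) were not called either. Of 3 tested endothelial markers 2 were higher, Kdr 4.84-fold and Esam 4.35-fold (limma adjusted p = 0.0159 and 0.00596). The third, Tek, went the other way, lower on both OSK+Glis1 arrays without a call (-0.85 ± 0.27 SE, limma adjusted p = 0.115). The sums of the endothelial list (1.20 to 1.65 in OSK and 1.07 to 1.37 in OSK+Glis1) came mostly from Tek. Pecam1 and Tie1 were above background on no array. Of 8 macrophage and leukocyte markers with a probe 4 were not well above background on any array (Adgre1, Aif1, Itgam and Lyz2). Of the 2 tested, Fcgr3 fell 6.02-fold (limma adjusted p = 0.0399). Cd14, the other, was higher on both OSK+Glis1 arrays without a call (0.56 ± 0.18 SE, limma adjusted p = 0.121). The sums of this list were 0.626 to 1.45 in OSK and 0.460 to 0.491 in OSK+Glis1. The part of these shifts in the falls of Slc7a11, Gpx2 and Aldh3a1 was not tested. In bulk RNA, fewer cells that express a gene and less RNA per cell cannot be told apart.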

How the data were processed

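Cy3-labelled total RNA was read on one-colour Agilent arrays, 2 per group. Per the file headers, the deposited scanner tables (1 per array) were written by Feature Extraction 10.7.3.1. Their intensity values, processed, raw median and local background, come as deposited by the authors. The processed ones are background-subtracted and spatially detrended but not normalized between arrays. They also deposited log2 values of unstated processing, which equal the log2 processed signal minus 1 constant per array within 0.01 for 99.8% to 99.9% of probes. The medians of those 4 columns were 3.1e-06, -0.00016, 0.00022 and 4.8e-05, so scale, centring and direction are settled and the tool is not. Median centring and the deposited values are therefore nearly the same setting, though counted apart below and above.

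Here log2 processed signals were scaled to each array's 75th percentile (951, 669, 844 and 949 intensity units for OSK and OSK+Glis1 replicates 1 and 2). Control and outlier spots were dropped, spots of a probe averaged, and probes kept if both arrays of either group were well above background there. The probe with the highest mean represented a gene. Symbols came from RefSeq (GRCm38.p6) through accessions, which matched 26933 probes; the array annotation names mm9. Groups were compared with limma 3.58.1 (R 4.3.3, two-sided, Benjamini-Hochberg over 19171 genes); 95% intervals use its moderated degrees of freedom. Up to 4 genes per list were named, called ones first, largest difference first, then by level. Only the limma fit was tested on simulated data, as log2 values per gene with known differences. The steps before it were not. The members and lists were chosen with earlier results of these data known. Precision is limited by the number of arrays. The tables hold no mean spot signal, so normexp (offset 50) used the median. Other settings were quantile, median and detected-probe scaling, 2 forms of normexp, other filters, all probes averaged, the deposited values, a replicate block, a trended prior and leaving out each array.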

Additional observations from a re-analysis of the deposited data

How the results depend on the processing

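None of the 10 called genes among the 40 named changed sign in the 15 settings. Under normexp 0 genes passed in limma (1411 at an unadjusted p under 0.05), so 0 of the 10 Nrf2 genes and 0 other pathway genes were called. With the local backgrounds that the scanner flags replaced by the array's median, 3019 passed. The cause was not tested further. With dim probes kept, 1504 of 32172 passed. Of the Nrf2 genes 1 (Gclc) was called higher with median centring, in the deposited values and with an intensity trend. Of them 2 (Slc7a11 and Nqo1) were called lower with quantile normalization, under normexp with flagged backgrounds replaced and with the trend. Among the other named pathway genes Gsr passed in the same 3 settings as Nqo1, Fth1 under normexp with flagged backgrounds replaced and with the trend, and Gpx4 with the trend. Leaving out 1 array gave 1219 to 1879 changed genes, 0 to 1 Nrf2 genes lower, 0 higher, and 2 to 3 other pathway genes higher and 3 to 4 lower. With a replicate block 2654 genes, 1 Nrf2 gene lower and 0 higher, and 3 other pathway genes higher were called. Cbr3 was the named call it ended. Same-numbered replicates did not deviate together (correlation 0.0094).

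A further 19 genes, none called in any setting, changed sign around small differences, and the cause was not tested. With quantile normalization these were Nfe2l2 -0.063, Osgin1 0.025, Sqstm1 -0.056 and Ftl1 -0.12, and with the percentile over detected probes Nfe2l2 -0.045, Sqstm1 -0.0096 and Ftl1 -0.042. With median centring they were Txnrd1 0.12, Osgin1 0.13, Taldo1 0.085, G6pdx 0.090, Dpp3 0.015 and Slc3a2 0.099, and in the deposited values Txnrd1 0.13, Osgin1 0.14, Taldo1 0.10, G6pdx 0.11, Dpp3 0.030 and Slc3a2 0.11. Under normexp they were Keap1 0.088, Gclm -0.15, Txnrd1 0.41, Taldo1 0.37, Pgd 0.16, G6pdx 0.34, Nfe2l1 0.18, Dpp3 0.25, Gpx1 0.17, Sod1 0.072, Prdx2 0.14, Sod2 0.0049, Slc3a2 0.39 and Bach1 -0.32. With flagged backgrounds replaced they were Txnrd1 0.024 and Osgin1 0.0021, and with all probes averaged Osgin1 0.027. Leaving out 1 array gave ranges across 0 for Nfe2l2 (-0.13 to 0.13), Gclm (-0.12 to 0.41), Txnrd1 (-0.11 to 0.067), Osgin1 (-0.32 to 0.29), Taldo1 (-0.15 to 0.043), G6pdx (-0.16 to 0.070), Sqstm1 (-0.28 to 0.35), Rbx1 (-0.015 to 0.35), Dpp3 (-0.49 to 0.25), Ftl1 (-0.20 to 0.21), Slc3a2 (-0.23 to 0.15) and Bach1 (-0.099 to 0.49). Signal over background limits the level of Slc7a11 in OSK+Glis1, where 2 of its 3 probes were not well above background on 1 array.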

Other observations

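A few pathway genes differed between the arrays of 1 group. A gap of more than 1 log2 unit between the OSK+Glis1 arrays was seen for 1 of the 10 genes (Slc7a11, -3.76 and -2.21) and for 4 of the 88 others, Chac1 (0.16 and -1.15), Maff (2.51 and 1.28), Mafk (0.16 and -0.99) and Nfe2 (-2.05 and -0.89). Between the OSK arrays it was seen for Txnip (1.65 and 0.51). Over all genes tested 4.83% had such a gap in OSK+Glis1 and 4.97% in OSK. Chac1 degrades glutathione, Maff and Mafk are small Maf partners of Nrf2, and Txnip binds thioredoxin. These 5 were named after their values were seen.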
